A study of Mus musculus with 2 samples.

Results

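Proteasome genes were examined in the liver of the mouse embryo. The proteasome is the protease that degrades proteins tagged with ubiquitin, and its genes carry Psm symbols. The members were the protein-coding genes whose GENCODE symbol starts with Psm, a letter from a to g and a digit. There were 50 of them among 43346 genes measured, of which 21474 were protein-coding. The RNA was polyadenylated RNA over 200 nucleotides long from C57BL/6J embryos at day 14, with males and females of a litter pooled, sequenced as stranded pairs of 101-base reads with spike-in RNA added. Both libraries, called replicate 1 and replicate 2 after their labels, belong to 1 untreated wild-type group, so no comparison between conditions was possible. The labels give both the same donor entry and name no separate litters, so SDs here measure a spread that may be technical. The p-values compare these libraries only and do not measure a spread over litters.

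The proteasome has a barrel-shaped 20S core of stacked rings, with alpha subunits in the outer rings and beta subunits in the inner rings. Some of the beta subunits cut protein chains at sites that face the inside of the barrel. The 19S regulator caps the barrel, binds ubiquitin chains, removes them and unfolds the substrate with a ring of ATPases. Assembly chaperones bring the subunits together and are then released or degraded. In cells exposed to interferon gamma, and constitutively in many blood cells, the catalytic beta subunits are replaced by immunoproteasome subunits, which favour peptides that fit class I major histocompatibility molecules. Fetal liver is at this age the main site of red cell production, and maturing erythroid cells remove much of their protein by the ubiquitin pathway.

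Of the 50 members, 14 encode constitutive core subunits, 17 subunits of the 19S regulator, 7 assembly chaperones and 3 catalytic subunits of the immunoproteasome. Another 3 belong to the PA28 activator that interferon induces (Psme1, Psme2 and Psme2b), 2 encode other activators (Psme3 and Psme4) and 1 an inhibitor (Psmf1). Psma8 and Psmb11 are forms known from testis and from thymic epithelium. Psmc3ip matched the rule by its name, but it encodes a factor of meiotic recombination and no proteasome subunit, so it was given a class of its own. It remains in counts over all 50 members. The 49 members compared between the libraries or by transcript also include it and lack only Psmb11. Adrm1 and Sem1, which are subunits under other names, fell outside the rule.

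The libraries held 97174777 and 149348514 expected counts on genes in replicates 1 and 2. All 8 hepatocyte and all 10 erythroid markers listed exceeded 1 TPM (a level corrected for transcript length and scaled to the same total in each library) in both libraries. Adult globins alone made up 48.6% and 43.8% of TPM, and any other gene's TPM moves inversely with that share. The libraries differed in markers of 3 other cell types. The summed level of 8 skeletal muscle markers was 102 TPM in replicate 1 and 15.1 TPM in replicate 2. Summed macrophage markers stood at 207 and 278 TPM, and summed granulocyte markers at 1251 and 1819 TPM. In a whole organ, fewer cells of a type and less RNA per cell cannot be told apart.

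Proteasome genes were among the more abundant protein-coding messages. By TPM the medians of core, 19S regulator, assembly chaperones and immunoproteasome differed, while single genes of the core and the regulator overlapped. The 49 members other than Psmc3ip reached a summed level of 3582 and 3920 TPM, which was 0.506% and 0.527% of the counts on genes in replicates 1 and 2. Of all 50 members, 47 exceeded 1 TPM in both libraries, whereas the median protein-coding gene stood at 1.17 and 1.20 TPM. Median levels ran from core (150 ± 6.74 TPM, SD, n = 2 libraries, 14 genes) through the 19S regulator (70.6 ± 3.34 TPM, 17 genes) and the assembly chaperones (32.9 ± 3.15 TPM, 7 genes) to the immunoproteasome (9.88 ± 1.05 TPM, 3 genes). By these medians the core stood 2.12 ± 0.00511-fold above the 19S regulator, 4.56 ± 0.232-fold above the assembly chaperones and 15.2 ± 0.942-fold above the immunoproteasome (SD, n = 2). No test was made of these folds, because no exact test of 2 libraries can reach 0.05. Ordered by mean level, 34 of the 49 pairs of neighbouring members had ranges over the libraries that overlapped. TPM was shifted in common between the libraries, and 33 of the 49 pairs, 18 of the overlapping ones among them, stood in the same order in both.

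**Figure D1:**
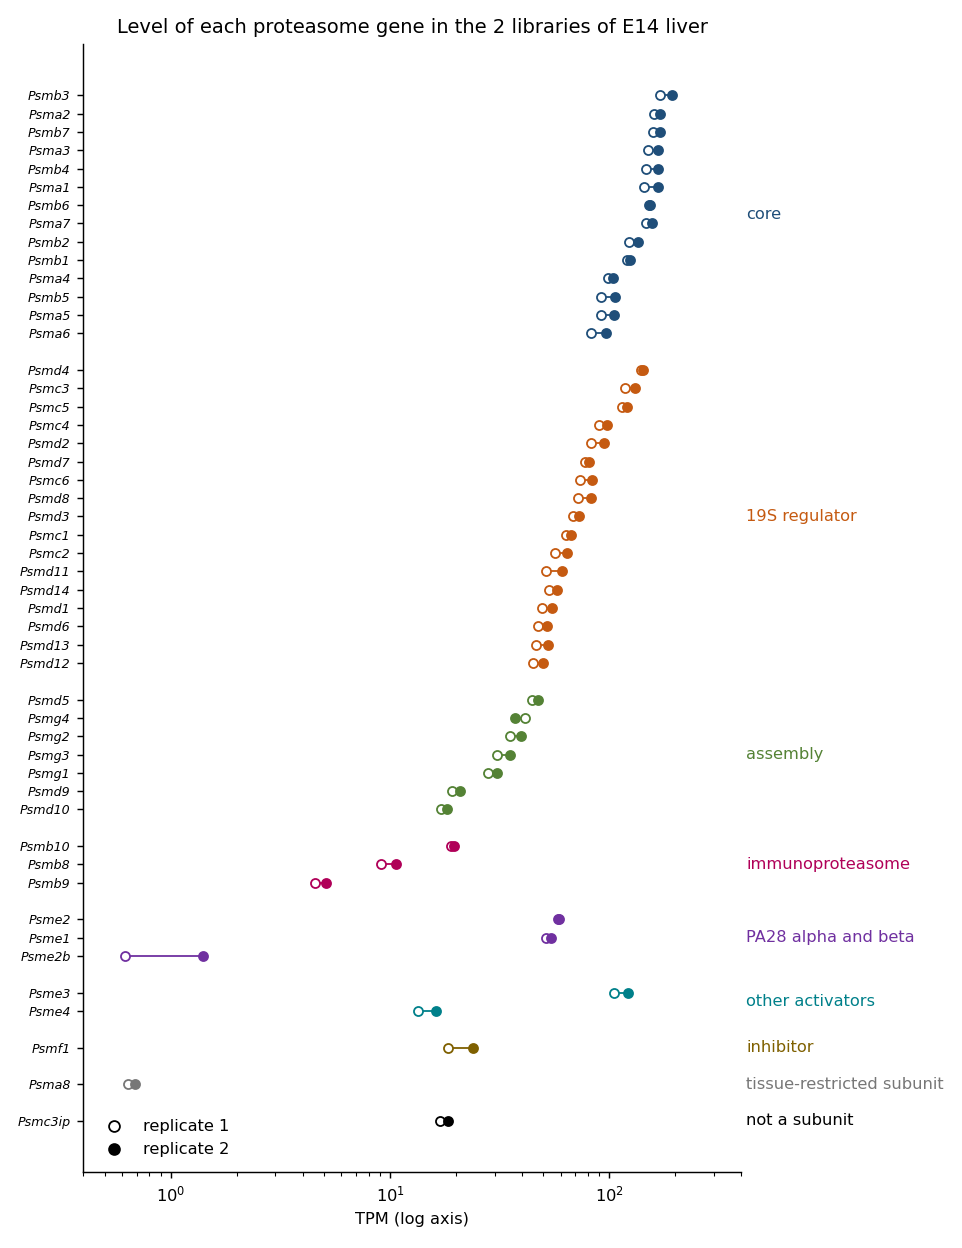
TPM of each member (log horizontal axis) in replicate 1 (open circles) and replicate 2 (filled circles), grouped and coloured by class and ordered by mean within it. Every core gene lies between 82.8 and 192.5 TPM, the immunoproteasome genes lie between 4.56 and 19.6 TPM, and Psmb11, listed at 0 TPM in replicate 1, is not drawn.

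The alpha ring, which forms the gate of the barrel, was represented by 7 genes whose median level was 144 and 156 TPM in replicates 1 and 2. Psma2 was the highest at 161 and 171 TPM. Psma6 was the lowest at 82.8 and 96.9 TPM. The ring's genes were therefore spread over 1.85-fold in mean level, and Psma6 in replicate 2 still lay below Psma4 in replicate 1 (98.4 TPM). Psma1 (144 and 166 TPM) and Psma3 (151 and 167 TPM) overlapped Psma2, whereas Psma7 (147 and 156 TPM) did not. This order held by TPM only. In the authors' mm9 gene table, which gives RPKM, Psma7 was the highest of the ring (24.8) and Psma3 the lowest (5.78). Psma6 (13.7) stood there above Psma2 (13.5). By median reads over the main introns (defined below), Psma1 was the highest (7755) and Psma5 the lowest (927).

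Among the beta subunits with a structural role, Psmb3 was the highest at 170.85 and 192.5 TPM, the highest mean of all 50 members. Psmb1 was the lowest at 120.3 and 124.8 TPM. Psmb2 and Psmb4 lay between them. This order, too, held by TPM only. In the mm9 RPKM values Psmb3 (15.0) was the lowest of these genes, below Psmb1 (17.2), and Psmb4 (34.6) the highest. By median reads over the main introns (defined below), Psmb3 (4215) was also below Psmb1 (7012) and the lowest of these genes. The longest coding transcript of Psmb3 shares 17.6% of its stretches of a read's length with other annotated genes. The part of these copies in its level was not tested. The catalytic Psmb5, which carries the chymotrypsin-like site, was at 91.9 and 107 TPM. Psmb6, with the caspase-like site, was at 152 and 153 TPM, and Psmb7, with the trypsin-like site, at 158 and 171 TPM. Psmb5 was thus lower than both other catalytic subunits in each library, although a fully constitutive core particle holds the same number of each. All 14 core genes lay within 2-fold of the class median and 10 of them within 1.5-fold.

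The 19S base contains the ring of 6 ATPases, which unfold the substrate. Psmc3 was the highest of them at 118 and 131 TPM. Psmc2 was the lowest at 56.8 and 64.4 TPM. Of the other base subunits, the ubiquitin receptor Psmd4 was at 139 and 143 TPM, the highest of the regulator, while the scaffold subunits Psmd2 and Psmd1 were at 82.3 and 94.6 TPM and at 49.5 and 54.5 TPM. Psmd4 lay below Psma7 (147 and 156 TPM) and 7 other core genes in both libraries, with no overlap.

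The lid removes the ubiquitin chains, and its 8 genes had the lowest median of its subgroups (55.9 ± 4.88 TPM, SD, n = 2) and the narrowest span, 1.68-fold. Psmd7 was the highest at 77.5 and 81.0 TPM, and Psmd12 the lowest at 44.6 and 49.7 TPM. Psmd14, the deubiquitinating enzyme of the lid, stood at 53.4 and 57.8 TPM. All 17 regulator genes lay within 2-fold of their median, 14 of them within 1.5-fold. No regulator gene reached the core median in either library, and 4 of 17 (Psmd4, Psmc3, Psmc5 and Psmc4) exceeded the lowest core gene in both.

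The gap between core and regulator was not equally wide in the authors' other readouts. In the mm9 gene table, where the authors give levels as RPKM, the median core gene exceeded the median regulator gene by 1.15-fold. The order within the regulator also differed there, with Psmd3 (24.4) above Psmd7 (16.0) and Psmc1 (8.28) below Psmc2 (9.48). Reads over annotated introns, taken as the median over the main introns of each gene, were 1.79-fold higher in the core (6522 reads) than in the regulator (3639 reads). Main introns are those with at least 10% of the reads of the gene's highest intron, so introns with few reads were left out. Core transcripts are also shorter, with effective lengths of 554 to 1020 bases against 1064 to 2655 bases in the regulator, and these ranges do not overlap. Across the 31 genes, level fell with length (Spearman rho -0.77), while within the core and within the regulator rho was -0.24 and -0.39. Across 5138 protein-coding genes of at least 10 TPM rho was -0.39. These are correlations across genes of the same libraries, given as descriptions, and class and length cannot be told apart here.

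Assembly chaperones were lower than the subunits they place, and all 7 lay below every core and every regulator gene within each library, Psmd5 by the smallest margin (44.3 against 44.6 TPM for Psmd12 in replicate 1). This did not hold in the mm9 RPKM values, where Psmd5 was at 14.5, above the regulator median of 14.0. Psmd5, Psmd9 (7.51) and Psmg2 (6.21) were there also above the core genes Psma5 (6.08) and Psma3 (5.78). Of the factors that build the 20S core, Psmg1 and Psmg2, which pair to start the alpha ring, were at 27.9 and 30.9 TPM and at 35.4 and 39.4 TPM. Their partners Psmg3 and Psmg4 were at 30.7 and 35.2 TPM and at 41.2 and 37.2 TPM. Pomp, the maturation factor that is itself the first substrate of the new core, was in contrast at core level (124 and 139 TPM). The chaperones of the 19S base were more uneven. Psmd5 was at 44.3 and 47.4 TPM, Psmd9 at 19.1 and 20.9 TPM and Psmd10, known as gankyrin, at 17.1 and 18.2 TPM.

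Immunoproteasome subunits had the lowest median of the classes above 1 TPM. Psmb8, which replaces Psmb5, was at 9.13 and 10.6 TPM with 1045 and 1740 expected counts. Psmb9, which replaces Psmb6, was the lowest at 4.56 and 5.10 TPM, with 579 and 1029 counts. Psmb10, which replaces Psmb7, was the highest at 19.1 and 19.6 TPM. Their order was the same in both libraries, with no overlap between any pair. Psmb9 exceeded the level of 65.3% of protein-coding genes and Psmb10 that of 85.3%.

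Set against its constitutive counterpart, each immunoproteasome subunit was a small share of the pair. Psmb8 made up 9.05 ± 0.0170% (SD, n = 2) of the TPM of Psmb8 and Psmb5 together, so that Psmb5 was 10.1 ± 0.0207-fold higher. For Psmb9 and Psmb6 the share was 3.07 ± 0.211%, a 31.7 ± 2.24-fold excess of Psmb6. For Psmb10 and Psmb7 it was 10.5 ± 0.335%, an 8.51 ± 0.303-fold excess of Psmb7. The 3 immunoproteasome subunits together made up 7.56 ± 0.0244% of all 6 catalytic messages. In the mm9 RPKM values the excess of Psmb5 over Psmb8 was smaller (log2 -2.57 for Psmb8 over Psmb5, against -3.33 in TPM), and Psmb9 was not used there.

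**Figure D2:**
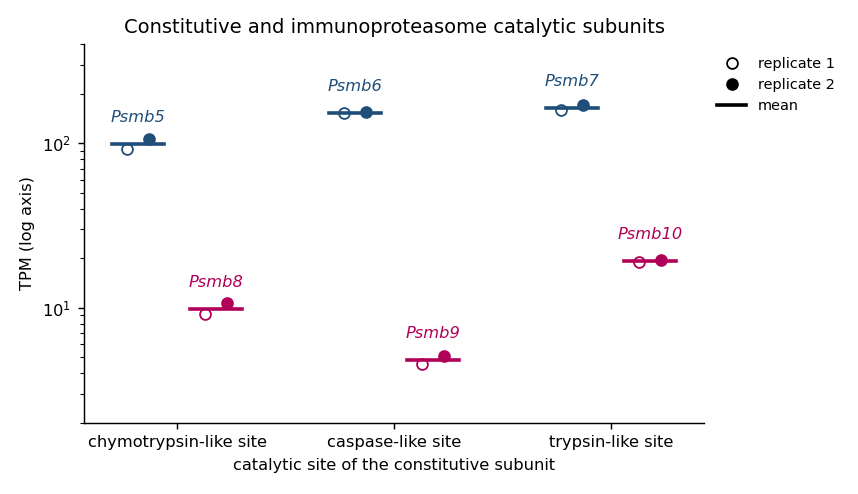
TPM (log vertical axis) of the constitutive catalytic subunits (blue) and the immunoproteasome subunits that replace them (magenta), with replicate 1 as open circles, replicate 2 as filled circles and the mean as a bar. Each constitutive subunit stands 8.51-fold to 31.7-fold above its replacement, with no overlap in either library.

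On the genome (GENCODE M21, GRCm38), Psmb8 (chr17:34197721-34201454, plus strand) and Psmb9 (chr17:34181987-34187764, minus strand) flank the peptide transporter gene Tap1. Psmb9 overlaps Tap1 by its 5′ end, and 495 bases separate Tap1 and Psmb8. Tap1 was at 2.31 and 2.53 TPM and Tap2, the other transporter subunit, at 2.64 and 3.09 TPM, below both immunoproteasome genes of this cluster. Psmb10 (chr8:105935735-105938444, minus strand) lies apart. The coding sequences of Psmb8 and Psmb5 were identical at 68.8% of aligned bases, those of Psmb9 and Psmb6 at 67.5% and those of Psmb10 and Psmb7 at 64.6%. Of the longest coding transcript of each of these 6 genes, only that of Psmb5 held stretches of one read length (101 bases) found in another annotated gene. Psmb5 shared 24.4% of its stretches, more with Gm3375 than with any other gene.

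Genes known to act with the immunoproteasome stood at mixed levels. Of 8 listed genes of class I antigen processing, B2m, the invariant chain of class I molecules, was at 162 and 176 TPM, and H2-K1 at 65.1 and 75.6 TPM. Nlrc5, the transactivator of class I genes, was at 0.15 and 0.17 TPM. Among 9 listed interferon genes, Irf1 was at 8.08 and 8.66 TPM and Ifit1, a target of type I interferon, at 0.81 and 1.12 TPM. The 6 dendritic cell markers summed to at most 7 TPM in a library. The 7 B and T cell markers summed to 7.18 and 8.36 TPM, with Lck at 3.52 and 3.05 TPM and Cd79b at 2.51 and 3.77 TPM, while Cd3e and Cd8a had 0 counts in both libraries. Which cells of the liver carried the immunoproteasome messages was not tested.

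The PA28 activator opens the gate of the core, and its alpha and beta chains, like the immunoproteasome, are induced by interferon gamma. Both were above all 3 immunoproteasome subunits by TPM in each library. In the mm9 RPKM values this held for Psme1 (5.19) but not for Psme2 (1.25), which was below Psmb8 (2.13) and Psmb10 (2.85). Psme1 was at 51.2 and 54.0 TPM and Psme2 at 58.9 and 58.6 TPM, so that the partners differed by 1.12 ± 0.0466-fold (SD, n = 2). Psme1 exceeded Psmb8 by 5.35 ± 0.372-fold, Psmb9 by 10.9 ± 0.456-fold and Psmb10 by 2.72 ± 0.0489-fold. The genes lie 5911 bases apart on chromosome 14.

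Psme2b, an intronless near-copy of Psme2 on chromosome 11, was at 0.62 and 1.41 TPM. Its coding sequence matched that of Psme2 at 99.3% of aligned bases, and 51.7% of its 101-base stretches also occur in Psme2, so that its reads are uncertain. The authors' posterior SD of its count was 5.32% and 2.66% of the count in replicates 1 and 2. It took 1.05% and 2.16% of the counts of the pair, and the summed level of both genes was 59.5 and 60.0 TPM. In the mm9 gene table the order was the reverse, with 8.83 RPKM for Psme2b and 1.25 RPKM for Psme2, and the cause was not tested.

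Of the nuclear activators, Psme3 (PA28 gamma) was at 105 and 122 TPM and Psme4 (PA200), which is known for histone degradation, at 13.4 and 16.3 TPM, a 7.65 ± 0.228-fold difference (SD, n = 2). Psme3 was the only member outside the core and the regulator above 100 TPM, and in the mm9 RPKM values it was the highest of all members (36.6, against 34.6 for Psmb4). The inhibitor Psmf1, also called PI31, was at 18.4 and 23.9 TPM.

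The tissue-restricted forms had the lowest mean levels of all members. Psma8, the alpha subunit of male germ cells, was at 0.64 and 0.69 TPM with 117 and 183 counts, 228 ± 3.02-fold (SD, n = 2) below Psma7, whose place it takes in spermatocytes. The 6 germ cell markers summed to 0.30 and 0.28 TPM, with Ddx4 at 0.21 and 0.23 TPM and Mael and Tex101 listed at 0 TPM in both libraries. Reads over Psma8 introns were nonetheless found at 7 of its 8 annotated introns, with up to 50 reads each. Psmb11, the catalytic subunit of thymic epithelium, had 1 and 4 counts, where a count of 0 would allow up to 3 by counting error alone, and was not tested. The 5 thymic epithelial markers summed to 6.01 and 4.08 TPM. The regulator Foxn1 was listed at 0 TPM in both libraries, whereas Ccl25 was at 3.33 and 3.56 TPM and Krt5 at 2.35 and 0.12 TPM.

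Between the libraries the proteasome genes moved little. The counts of 18572 genes with at least 10 counts were compared by an exact conditional binomial test, two-sided and adjusted by Benjamini-Hochberg, after TMM scaling (trimmed mean of M values). This test compares these libraries, with counting error as its only error. It called 27 of the 49 members tested, 14 higher in replicate 2 and 13 higher in replicate 1, where 39.9% of all genes tested were called, 19.7% higher in replicate 2 and 20.1% higher in replicate 1. At 1.5-fold or more 1 of 49 members was called, against 8.43% of all genes. With edgeR's exact test and a common dispersion estimated from both libraries, no member was called. Among the members, Psme2b alone had an unadjusted p under 0.05 (0.0297 by edgeR's exact test). Of all genes, 471 were called and 1098 had an unadjusted p under 0.05. That dispersion takes the difference between the libraries as noise, so the lack of calls does not show that members did not differ. Scaled by library totals in place of TMM, 28 members were called, 26 higher in replicate 2 and 2 higher in replicate 1, while the share of all calls that were higher in replicate 2 rose from 49.5% to 67.5%. The directions of such small differences therefore depend on the scaling.

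Of the 49 members with at least 100 counts, 45 differed by less than 1.1-fold after TMM scaling, as did 59.8% of 14528 such genes. All 31 core and regulator genes did, with log2 ratios of replicate 2 over replicate 1 from -0.13 (Psmb6) to 0.08 (Psma6). Among 1324 protein-coding genes of 40 to 200 TPM, the band in which these 31 genes lie, 74.8% did. Deposited TPM values were on the other hand higher in replicate 2 for every member except Psmg4 and Psme2, by a median log2 ratio of 0.14. The median was 0.15 over all genes of at least 100 counts and 0.13 over the protein-coding genes of 40 to 200 TPM.

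**Figure D3:**
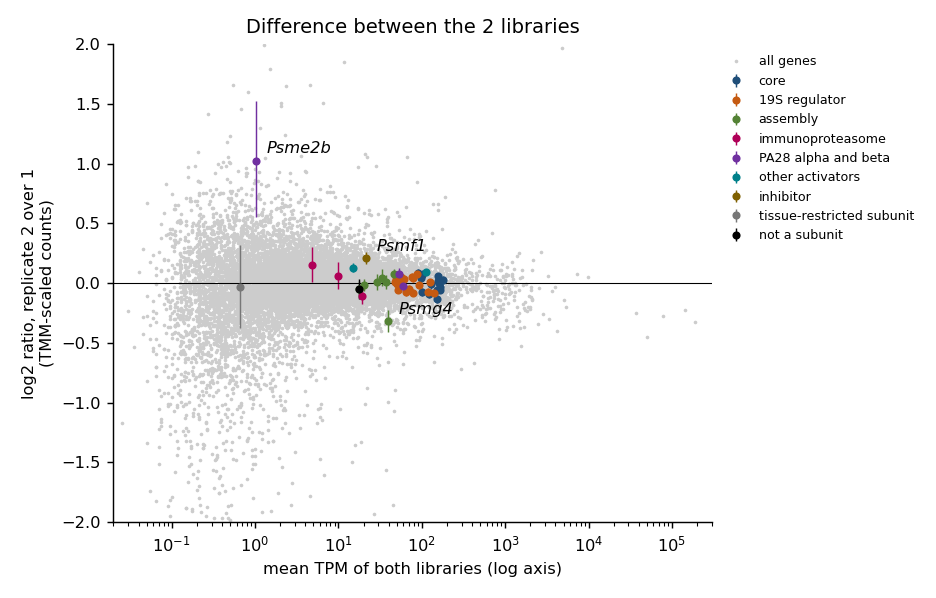
TMM-scaled log2 ratio of replicate 2 over replicate 1 against mean TPM (log horizontal axis), for all genes of at least 100 counts (grey, 113 outside the axis) and for the members coloured by class, with bars for the exact 95% counting interval. The 4 members outside 1.1-fold are Psme2b (1.02), Psmg4 (-0.32), Psmf1 (0.21) and Psmb9 (0.15).

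The members with the largest differences belonged to small classes. Psme2b was higher in replicate 2 by a log2 ratio of 1.02 (counting interval 0.55 to 1.52, adjusted p = 4.3e-05 by the exact binomial test), on 47.7 and 156 counts. Psmg4 was lower in replicate 2 by a log2 ratio of -0.32 (-0.41 to -0.22, adjusted p = 6e-10 by the same exact test), the sole assembly chaperone to differ by more than 1.1-fold. Psmf1 was higher in replicate 2 by 0.21 (0.16 to 0.26). For Psmb8 and Psmb9 the log2 ratios were 0.06 and 0.15, neither called. Psmb10 was called lower in replicate 2 at -0.11 (-0.18 to -0.03, adjusted p = 0.015 by the same exact test). That call was not kept at a threshold of 0.01. Of the 8 macrophage markers 7 were called higher in replicate 2, as were 8 of 9 interferon genes, with median log2 ratios of 0.30 and 0.20. These calls come from the binomial test, whose only error is counting error, and 19.7% of all genes had a call in that direction. All 8 skeletal muscle markers had a call in the opposite direction, against 20.1% of all genes. The part of these markers and interferon genes in the differences of the members was not tested.

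The genes around the proteasome were read in the same way. Of the ubiquitin genes, Ubb was at 876 and 968 TPM and the ribosomal fusion gene Rps27a at 1102 and 1081 TPM, the latter called lower in replicate 2 with a log2 ratio of -0.17. Of the 7 proteasome-bound factors listed, the deubiquitinase Usp14 (30.8 and 38.0 TPM) and the ligase Ube3c (7.07 and 8.60 TPM) were called higher in replicate 2 and Akirin2, which carries proteasomes into the nucleus, lower (27.3 and 27.1 TPM). The unfoldase Vcp (80.5 and 85.6 TPM) was at the level of the regulator genes. Nfe2l1, the factor known to raise proteasome genes when proteasome activity falls, was at 17.2 and 14.2 TPM. Its erythroid relative Nfe2 was at 131 and 176 TPM, and Nfe2l3 at 0.09 and 0.07 TPM.

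Promoters were searched because factors of the Nfe2l1 family bind antioxidant response elements. Windows of 300 bases, 250 before and 50 after each start, came from the RefSeq promoter table (GRCm38.p6), which held 42 of the 50 members. The pattern TGACNNNGC was found, on either strand, in 6 of these 42 genes (14.3%) and in 14.0% of all 27025 genes of the table. CCAAT was present in 35.7% of the 42 and 41.1% of all genes, and the interferon-type pattern TTCNNNGAA in 3 of the 42, Psmb8, Psmd2 and Psmg1, and in 9.55% of all genes. Psma8, Psmb1, Psmb2, Psmb7, Psmc3, Psmd3, Psmd7 and Psmg2 have no window in the table. The 5 matches to TGACNNNGC that lie whole before the start and outside annotated exons are shown 5′ to 3′ along the gene's strand because they include the catalytic subunits Psmb5 and Psmb6, with the match in capitals and on the opposite strand for Psmc6 and Psmd12. The sixth, in Psme4, lies across the start. A match is a description of letters and not a binding site.
Psmb5 (chr14:54618023-54618067, minus strand, 47 bases before the start): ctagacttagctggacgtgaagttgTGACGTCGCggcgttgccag
Psmb6 (chr11:70525323-70525356, plus strand, 9 bases before): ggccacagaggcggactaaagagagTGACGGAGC
Psmd9 (chr5:123228134-123228189, plus strand, 31 bases before): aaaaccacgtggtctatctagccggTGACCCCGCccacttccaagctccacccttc
Psmc6 (chr14:45329574-45329630, plus strand, 227 bases before): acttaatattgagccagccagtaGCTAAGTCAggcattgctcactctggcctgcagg
Psmd12 (chr11:107479278-107479314, plus strand, 247 bases before): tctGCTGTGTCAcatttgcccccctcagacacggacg

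Levels of these 5 genes showed no common height. Psmb6 was among the highest members (152 and 153 TPM), whereas Psmd9 was among the lowest chaperones (19.1 and 20.9 TPM).

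Most members were carried by a single protein-coding transcript. Leaving out Psmb11, the main transcript held at least 90% of the gene's TPM in both libraries for 30 of 49 members, including 20 of the 39 that have several annotated transcripts. For 48 of 49 the same transcript led in both libraries. Coding transcripts held at least 80% of the gene's TPM in both libraries for 46 members. The exceptions were Psma3, Psmc3ip and Psme1, the last at 79.9% and 80.9%.

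Psma3 was the exception among core subunits. Its leading transcript, Psma3-203, is annotated as a retained intron and held 38.2% and 38.6% of the gene's TPM. The coding transcript Psma3-204 followed at 36.2% and 37.8%, and Psma3-201, annotated for nonsense-mediated decay, at 18.3% and 15.7%. Coding transcripts of Psma3 together amounted to 39.4% and 40.8%, so that the TPM of its coding part was well below the TPM of the gene, which is what the levels above give. In Psmc3ip, the gene outside the proteasome, the coding Psmc3ip-201 led in replicate 1 (46.0%) and the retained-intron Psmc3ip-202 in replicate 2 (45.0%).

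**Figure D4:**
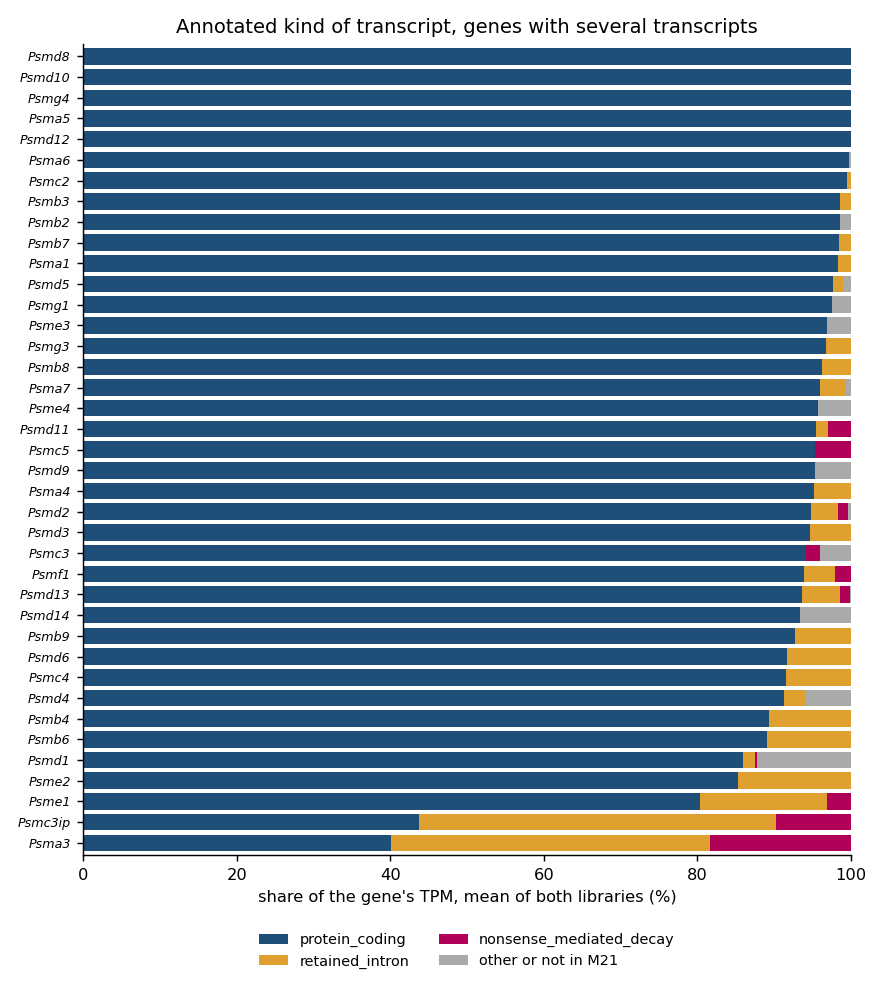
Share of each gene's TPM (mean of both libraries, %) by the annotated kind of transcript, for the 39 members with several transcripts. Psma3 and Psmc3ip stand apart at 40.1% and 43.7% protein-coding, and every other gene lies above 80%.

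Several members split their level over more than one coding transcript. Psmb8-203 held 61.3% and 62.2% and Psmb8-201 34.8% and 34.2%. In Psmd11, Psmd11-214 held 49.4% and 53.4% and Psmd11-201 45.0% and 40.6%. Psmd4-202 led Psmd4 with 65.9% and 66.1%, and Psmf1-202 led Psmf1 with 58.5% and 59.6%. By counts, which weigh long transcripts more, Psmb8-201, Psmd11-201 and Psmf1-201 led instead. Shares moved more between the libraries in Psme1-208 (65.6% and 80.8%), where the short Psme1-211 held 14.1% in replicate 1 and was listed at 0 in replicate 2, and in Psmb9-204 (79.6% and 89.8%). Psmg4, the chaperone that differed between libraries, was led by Psmg4-202 with 69.3% and 64.8%.

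Splice junctions gave a view of the members on the older mm9 build, with the reads of both libraries summed. Of 522 annotated introns in 47 members, 479 had reads and 450 had at least 10. Junctions absent from the annotation took 0.824% of the 1350708 junction reads inside these genes. In 5 members a single such junction exceeded 1% of the gene's reads. It reached 12.2% in Psme1 (2683 reads), 10.1% in Psmg3 (257 reads), 2.58% in Psma8 (6 reads) and 1.56% in Psme4 (418 reads). The highest share, 30% in Psme2b, rests on 6 reads in a gene with no annotated intron. The main introns of a gene, those with at least 10% of the reads of its highest intron, were 2 of 15 in Psma3. In Psme2 they were 4 of 11. Across the 47 members with introns, median reads over the main introns and TPM ranked alike (Spearman rho 0.89, across genes and given as a description). Over the 31 core and regulator genes rho was 0.81. For mm9 RPKM and TPM rho was lower, 0.75 over the members in the table and 0.47 over those 31 genes.

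Reads were spread evenly along Psmb7, from 6998 to 12095 over its 7 introns. In Psma3, the first 2 of the 10 introns shared by at least 3 transcripts had 7520 and 6867 reads and the other 8 had 13 to 172. In Psme2, introns 6 to 9 had 797 to 1717 reads and the other 6 had 20 to 146. The longest coding transcript of Psma3 (Psma3-202, a minor one here) shares 20.6% of its 101-base stretches with Gm13835, and that of Psme2 shares 44.2% with Psme2b. Psma3-202 is 2846 bases long, and the share in the more abundant Psma3-204 (859 bases) was not measured and may differ. How the authors counted reads that fit several places is not given in the sources used here, and the part of these copies in the uneven reads was not tested. In all, by the longest coding transcript of each, 14 of 50 members shared at least 1 such stretch with another annotated gene, 7 of them at least 10% of their stretches.

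**Figure D5:**
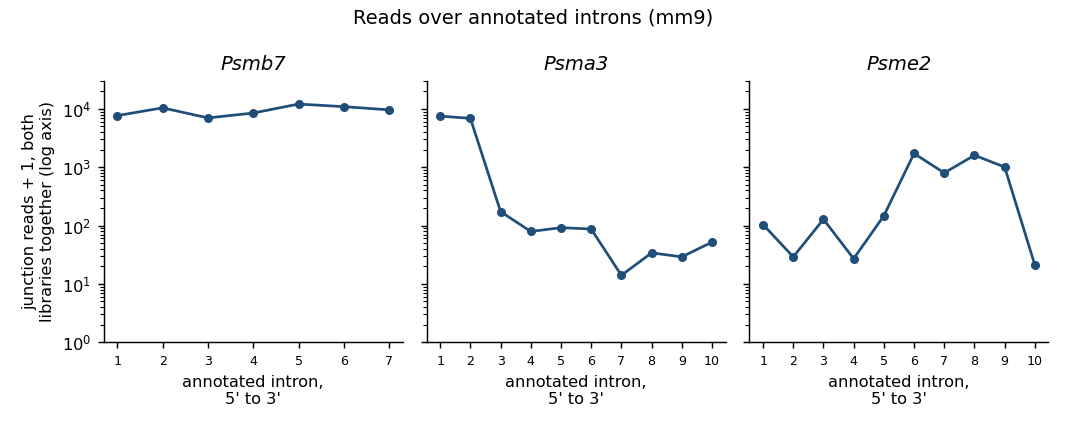
Reads over annotated introns (log vertical axis, 1 added, both libraries together, mm9) in transcript order for Psmb7, Psma3 and Psme2. Psmb7 is even, Psma3 falls from 6867 reads at intron 2 to 172 at intron 3, and Psme2 is high only at introns 6 to 9.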

How the data were processed

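RNA was measured in 2 libraries of 1 group. The expected counts (estimated fragments per gene and transcript) were made by the authors on mm10 with GENCODE M4, per the deposited README. Which aligner and quantifier made them was not given in the sources used here. TPM and FPKM values were likewise deposited beside them, per effective length. The score column used is the posterior SD of the count, per the file headers. Junction counts were deposited as whole reads on mm9, with R1 and R2 parts that no label ties to a sample, so they were used pooled, not per library as planned. The mm9 gene values are RPKM by the authors for 2 unnamed replicates, averaged here.

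Features named by numbers (26248), 96 ERCC spike-ins and 1 other feature were set apart (3.29% and 3.40% of counts). Of 43346 genes, 42462 matched GENCODE M21 by identifier and 884 did not. Counts were rounded. Scaling was TMM (edgeR 4.0.16), with DESeq2 1.42.0 size factors and library totals as alternatives. The two-sided exact conditional binomial test (SciPy 1.17.1, Python 3.11.15) used genes of at least 10 counts, Benjamini-Hochberg adjustment and a threshold of 0.05. Its code was run on simulated counts that held counting error only, as the test assumes. That run does not bear on any further spread between the libraries. Intervals and the floor of 3 counts cover counting error only. The precision of a level follows its count, which was at least 579 for every member above 1 TPM in both libraries. Coding sequences (GENCODE M21) were aligned globally with Biopython 1.88. The members, their classes and all lists were chosen with earlier results of these data known. Every member could be named; other genes were named from the fixed lists, and other copies (Gm3375, Gm13835) after their values were seen. A few listed genes are not reported here.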

Additional observations from a re-analysis of the deposited data

How the results depend on the processing

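The 19S regulator, assembly, immunoproteasome and PA28 stayed below the core in every alternative run. The median of Psme3 and Psme4 was below the core by TPM and above it by mm9 RPKM. Under mm9 RPKM the log2 ratio of class median to core median was -0.20 for the 19S regulator, -1.68 for assembly, -2.69 for the immunoproteasome (2 genes) and -1.63 for PA28 alpha and beta (Psme1 as the median), and with means over members -0.84, -2.11, -3.60 and -1.88, against -1.09, -2.19, -3.93 and -1.51 as reported. With members of at least 1 TPM in both libraries, PA28 was at -1.43. Under mm9 RPKM Psmb8 over Psmb5 was -2.57 and Psmb10 over Psmb7 -3.15. With 1 TPM added, the 3 pairs were at -3.20, -4.72 and -3.02, and with 0.1 TPM Psmb8 over Psmb5 was at -3.32. As reported they were at -3.33, -4.98 and -3.09. The cause was not tested. edgeR's exact test with a common dispersion called 471 genes, all at 1.5-fold or more, where the binomial test called 7403 and 1565. Requiring 100 counts left 823 calls at 1.5-fold or more among 14528 genes tested, against 1565 among 18572. With 1 library left out, the class ratios were -1.09 to -1.08, -2.24 to -2.14, -3.99 to -3.86 and -1.52 to -1.50, the pair ratios -3.33 to -3.33, -5.06 to -4.91 and -3.12 to -3.05, and 30 to 32 members had a main transcript of 90% or more. No paired analysis was possible because there is only 1 group. FPKM and posterior mean TPM moved none of the class or pair ratios beyond the spread between the libraries.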
